A study of Homo sapiens with 27 samples.

Results

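The genes described here are 41 human genes of glycolysis and of the response to low oxygen. They are 17 glycolytic enzymes, 6 transporters or regulators of glycolytic flux, 15 other targets of the hypoxia-inducible factors (HIFs) and 3 HIF subunits. They were chosen by symbol, and all 41 were found among the 67130 genes of both deposited count tables. RNA was sequenced from 27 libraries in 9 groups of 3, and every group carried a knockout of ARID1A, the gene of a DNA-binding subunit of the chromatin remodeller BAF (also SWI/SNF). The 18 libraries labelled 293T, a human embryonic kidney line, came from knockout cells with Flag-tagged ARID1A put back in the form V2084D, G2087E, G2087R, K2025E or wild type (WT), and from knockout cells with no ARID1A put back (KO). The 9 libraries labelled Huh7, a hepatocellular carcinoma line, came from knockout cells with V2084D and a knockdown of STUB1 (named shSTUB1), with V2084D alone and with WT. ARID1A was delivered by lentivirus for stable expression, and the labels name no promoter, clone, control hairpin or oxygen level. STUB1 encodes CHIP, a ubiquitin ligase that works with chaperones. The labels number replicates 1 to 3 and do not say whether they were separate cultures, so p-values measure the spread between these libraries, which may be technical.

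Glycolysis turns glucose into pyruvate in the cytosol, and lactate dehydrogenase reduces pyruvate to lactate. HIFs pair an oxygen-regulated alpha subunit, HIF1A or EPAS1 (HIF-2 alpha), with ARNT. In oxygen, EGLN prolyl hydroxylases mark the alpha subunit for degradation through VHL. In low oxygen the pair binds the hypoxia response element and raises transcription of glucose transporters, glycolytic enzymes and genes of vessel growth, pH control and mitophagy. The alpha subunits are thus controlled mainly as proteins, and their mRNA is not a reading of HIF activity.

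The libraries labelled Huh7 held 59124374 to 79915177 counts each, and those labelled 293T held 33429483 to 55539529. Levels below are CPM, counts scaled to library size with TMM factors. ARID1A was at 119 to 194 CPM in KO cells and at 5727 to 116307 CPM in 13 of the 15 libraries labelled 293T with ARID1A put back. The exceptions were the libraries labelled G2087R replicates 1 and 2, at 294 and 326 CPM, while replicate 3 had 68482 CPM. ARID1A stood at only 187 to 390 CPM across the 3 Huh7 groups, a range that includes the values of those G2087R libraries. No Huh7 KO group gives a background, so ARID1A put back was not evident in the Huh7 RNA. The ARID1A forms named for Huh7 below follow the labels. STUB1 was at 69.4, 83.3 and 65.9 CPM in shSTUB1 cells, against 247, 247 and 290.2 CPM in V2084D cells. Of 15 liver cell markers, none reached a mean of 1 CPM in the libraries labelled Huh7. Their summed level there was 2.35 to 5.76 CPM, with ALB at 0.622 ± 0.437 CPM (SD, n = 9) and AFP, APOH, TTR and FGB below 0.05 CPM. Of 10 markers of HEK293 cells, 9 reached 1 CPM in the same libraries and all 10 in the libraries labelled 293T. The labelled liver origin was therefore not seen in the RNA, and the name Huh7 below stands for the label. On the second principal component of the Huh7 libraries, shSTUB1 replicate 2 stood apart at 96.9, beside 14.1 and 11.3 for shSTUB1 replicates 1 and 3.

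The glycolytic enzymes held the highest levels of the set. Per kilobase of principal transcript, the median of GAPDH, which oxidises glyceraldehyde 3-phosphate, was 1459 CPM per kb over the 9 libraries labelled Huh7 and 1066 CPM per kb over the 18 labelled 293T, the highest of the 41 in both. ENO1, the enolase of most tissues, was next in Huh7 at 872 CPM per kb, and ALDOA, the main aldolase, was next in 293T at 754 CPM per kb. The highest level among the other HIF targets was that of NDRG1, a stress-responsive gene, in Huh7 (87.2 CPM per kb) and that of VEGFA, the vessel growth factor, in 293T (43.3 CPM per kb). The place of VEGFA depends on its short principal transcript, of 1199 bases against 3755 for NDRG1. Without scaling by length, the 293T median was 51.9 CPM for VEGFA and 145.6 CPM for NDRG1. At the low end were SLC16A3, the lactate exporter MCT4, with 0.341 CPM per kb in Huh7 and 0.691 in 293T, and CA9, the membrane carbonic anhydrase, with 0.189 CPM per kb in Huh7. STC1, a secreted glycoprotein, had 0.686 CPM per kb in Huh7 and 0.156 in 293T, there below SLC16A3. CA9 had 0 to 9 reads in every library labelled 293T and was not tested there. GAPDH, LDHA, LDHB, PGAM1, TPI1, PGK1 and ENO1 have processed pseudogenes, and how reads shared with them were counted is not given in the sources used here, so their values carry that uncertainty.

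The promoter stretches below are shown because they range from several copies of the core of the hypoxia response element to none. They are RefSeq sequence of build GRCh38.p14, 5′ to 3′ on the gene's strand, the longest stretch outside every GENCODE 29 exon in the 250 bases before an annotated start. Each start used here lies inside its gene, downstream of the outermost GENCODE start. Capitals mark the letters ACGTG or GCGTG on either strand (CACGT and CACGC in these lines), and the palindrome CACGTG counts as 2 matches, since its strands overlap.
BNIP3 (chr10:131982014-131982173, minus strand): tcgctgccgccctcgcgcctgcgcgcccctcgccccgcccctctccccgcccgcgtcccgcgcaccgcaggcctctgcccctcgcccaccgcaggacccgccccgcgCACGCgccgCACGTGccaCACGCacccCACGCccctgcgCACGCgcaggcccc
PGK1 (chrX:78103998-78104173, plus strand): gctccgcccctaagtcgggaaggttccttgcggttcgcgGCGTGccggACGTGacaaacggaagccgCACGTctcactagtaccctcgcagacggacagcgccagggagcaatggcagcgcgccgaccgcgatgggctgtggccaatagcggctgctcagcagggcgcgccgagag
LDHA (chr11:18394313-18394387, plus strand): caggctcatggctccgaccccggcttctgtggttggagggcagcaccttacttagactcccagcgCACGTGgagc
HK2 (chr2:74834920-74835169, plus strand): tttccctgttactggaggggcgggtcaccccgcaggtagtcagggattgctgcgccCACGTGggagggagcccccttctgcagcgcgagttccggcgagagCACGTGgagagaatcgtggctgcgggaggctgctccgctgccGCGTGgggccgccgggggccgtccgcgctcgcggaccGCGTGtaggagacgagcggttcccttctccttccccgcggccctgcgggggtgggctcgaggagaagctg
CXCR4 (chr2:136118166-136118399, minus strand): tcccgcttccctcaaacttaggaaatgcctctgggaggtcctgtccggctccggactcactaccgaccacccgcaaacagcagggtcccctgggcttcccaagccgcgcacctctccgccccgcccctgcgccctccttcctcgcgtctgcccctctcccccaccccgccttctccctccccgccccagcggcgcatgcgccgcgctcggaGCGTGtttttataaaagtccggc
EGLN3 (chr14:33951082-33951324, minus strand): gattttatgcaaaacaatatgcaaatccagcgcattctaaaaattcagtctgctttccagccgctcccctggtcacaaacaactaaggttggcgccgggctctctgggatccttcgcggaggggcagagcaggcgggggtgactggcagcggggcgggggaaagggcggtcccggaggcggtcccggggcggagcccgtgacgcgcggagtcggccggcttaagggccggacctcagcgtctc
The BNIP3 stretch held 6 matches, the HK2 stretch, before a second annotated start, 6, the PGK1 stretch 3 and the LDHA stretch 2. CXCR4 held 1 and EGLN3 held 0. The full windows of 250 bases held the same numbers, except that of LDHA, which held 5. Of 35116 windows of 250 bases in all, 43.2% held at least 1 match, 7.76% at least 3, 1.36% at least 5 and 0.646% at least 6. Of the 35 members with a window, 28 (80%) had a match in at least 1 window, against 47.4% of 27305 genes. Per window the shares were 58.5% of 65 member windows and 43.2% of all windows. The members with a match were 14 of 17 glycolytic enzymes, 4 of 5 transporters or flux regulators, 8 of 10 other HIF targets and 2 of 3 HIF subunits. Genes with more windows have more chances of a match. By window the shares were 51.4% of 37 for the enzymes and 63.6% of 11 for the transporters or flux regulators. They were 76.9% of 13 for the other HIF targets and 50% of 4 for the subunits. The letters are a description of the sequence and not a binding site. SLC2A3, VEGFA, BNIP3L, NDRG1, HILPDA and STC1 had no window.

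In the libraries labelled Huh7, V2084D against WT divided the set by role. The glycolytic enzymes mostly fell, while the transporters, flux regulators and other HIF targets that changed rose. Among 17 glycolytic enzymes, 10 fell and 4 rose. Of the 15 other HIF targets, 11 rose and none fell. Over all 41 members, 31 passed edgeR's quasi-likelihood test at a Benjamini-Hochberg adjusted p below 0.05, which is 75.6%, against 42.0% of the 22510 genes tested (22.0% higher and 20% lower). The median log2 difference was -0.20 over the glycolytic enzymes, 0.50 over the transporters and flux regulators, 0.90 over the other HIF targets and 0.58 over the HIF subunits, against 0.03 over all genes. The medians of the other HIF targets and of the glycolytic enzymes thus lay 1.11 apart. The members were chosen with earlier results of these data known, and genes outside the set divided less. Of 33 further HIF targets tested, 13 rose and 5 fell, with a median of 0.07. Of 14 further isoforms and side enzymes of glycolysis, 3 rose and 3 fell, with a median of 0.09. In bulk RNA, a change in each cell and a change in the share of cells cannot be told apart. The comparison asks how cells with V2084D differ from cells with WT.

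**Figure D1:**
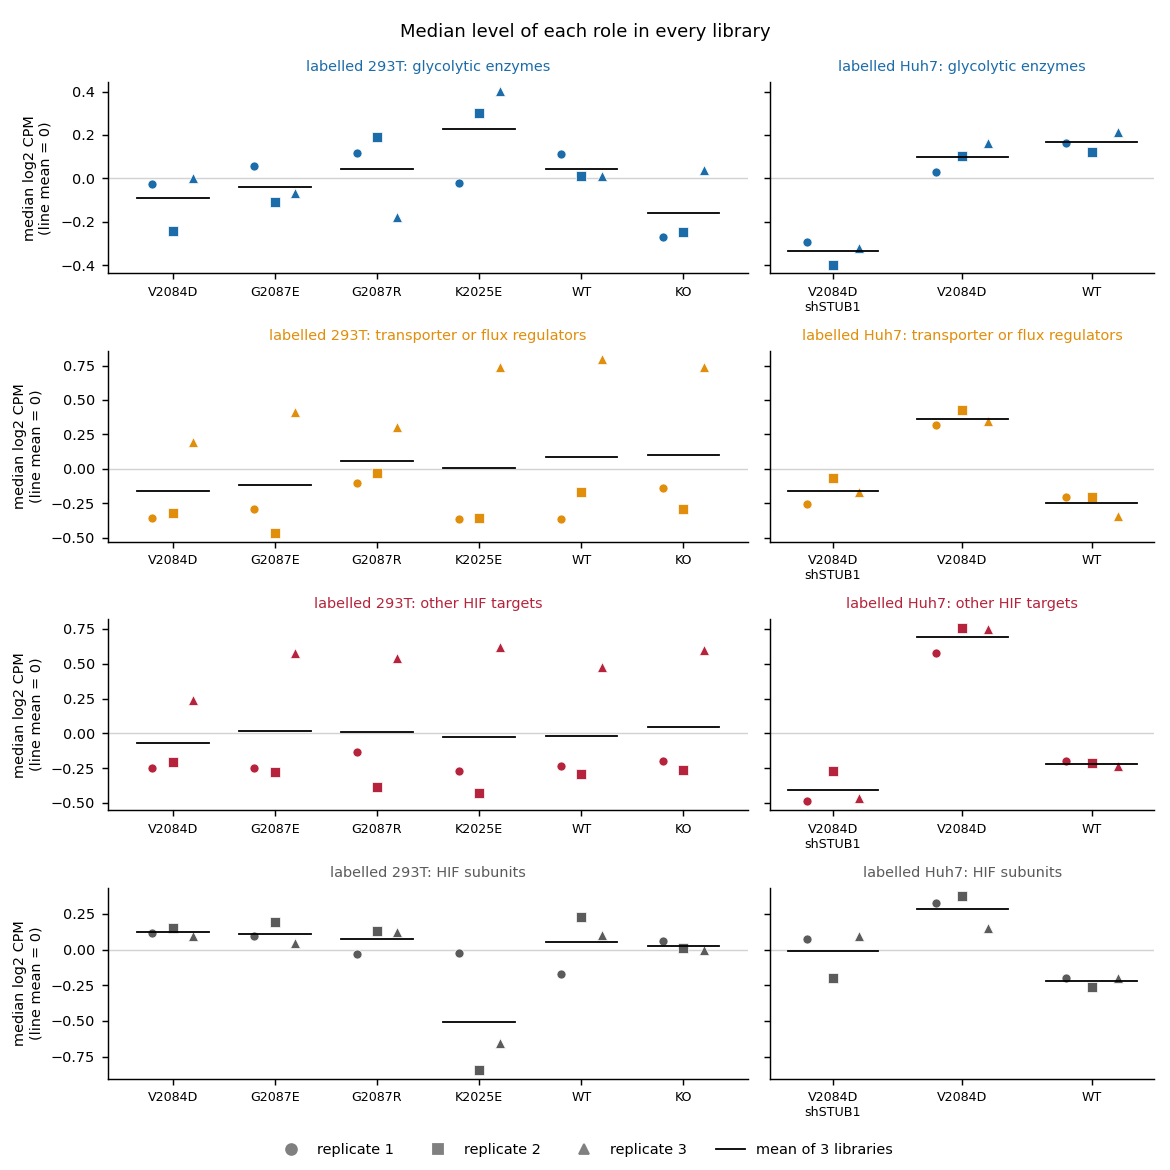
Median level of each role in every library, as log2 CPM with the mean over the libraries of the line set to 0 for each gene, the groups along the x axis, marker shapes for replicate numbers and black bars for the mean of 3 libraries. The other HIF targets were at 0.57, 0.76 and 0.75 in Huh7 V2084D cells, against -0.20, -0.21 and -0.24 in WT cells, and in 293T their replicate 3 value in each group stood above those of replicates 1 and 2.

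Among the enzymes that fell with V2084D in Huh7, the 6 with the smallest adjusted p come first, given with the shSTUB1 cells. PKM, the pyruvate kinase of the last ATP-yielding step, had 850.4, 833 and 853 CPM in shSTUB1 cells, 1061, 1128 and 1152 CPM in V2084D cells and 1946, 1902 and 2104 CPM in WT cells. PFKP, the platelet isoform of phosphofructokinase, had 77.2, 74.7 and 76.95 CPM in shSTUB1 cells, 104, 95.9 and 105 CPM in V2084D cells and 200.5, 193 and 217 CPM in WT cells. PGAM1, the phosphoglycerate mutase, had 369.9, 407 and 361 CPM in shSTUB1 cells, 338, 387 and 360.4 CPM in V2084D cells and 655, 667 and 689 CPM in WT cells. For these 3 genes every V2084D library lay well below every WT library, and PKM and PFKP were lower still with shSTUB1. The log2 differences of V2084D minus WT were -0.86 ± 0.05 (SE) for PKM, -1.03 ± 0.07 for PFKP and -0.92 ± 0.06 for PGAM1. GPI, the glucose 6-phosphate isomerase, had 383, 382 and 381 CPM in shSTUB1 cells, 439, 464 and 447 CPM in V2084D cells and 534, 538 and 575 CPM in WT cells. LDHB, the lactate dehydrogenase subunit common in heart, had 960.0, 1119.8 and 878 CPM in shSTUB1 cells, 864, 913 and 1015 CPM in V2084D cells and 1261, 1203 and 1183 CPM in WT cells. ALDOA had 669, 704 and 671 CPM in shSTUB1 cells, 1137, 1253 and 1188 CPM in V2084D cells and 1301, 1313 and 1425 CPM in WT cells. These 3 differences were smaller, at -0.31 ± 0.05 for GPI, -0.41 ± 0.09 for LDHB and -0.20 ± 0.05 for ALDOA, and the V2084D and WT libraries did not overlap. Across the 6 genes the adjusted p in edgeR's quasi-likelihood test ran from 6.73e-07 for PKM to 0.00686 for ALDOA. The other 4 that fell were HK1, PFKL, PFKM and TPI1, with log2 differences from -0.27 for PFKM to -0.20 for HK1. Of these 4, the PFKL call ended without V2084D replicate 1 or 2 or WT replicate 3, the TPI1 call without V2084D replicate 1 or 2 or WT replicate 1 or 3, and the HK1 call without V2084D replicate 2. With offsets for GC content and length HK1 (-0.0962) and PFKL (-0.12) did not pass either.

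The 4 glycolytic enzymes that rose with V2084D were ALDOC, the brain aldolase, ENO2, the neuronal enolase, GAPDH and PGK1, the phosphoglycerate kinase. ENO2 had 52.8, 57.5 and 52.8 CPM in shSTUB1 cells, 151, 135 and 129 CPM in V2084D cells and 86.4, 84.1 and 90.7 CPM in WT cells, and PGK1 had 181, 186 and 167 CPM in shSTUB1 cells, 333, 374 and 353 CPM in V2084D cells and 269.6, 272 and 277 CPM in WT cells. Both genes were highest in V2084D and lowest in shSTUB1 cells with no overlap of the 3 groups. V2084D minus WT was 0.64 ± 0.08 for ENO2, 0.35 ± 0.06 for PGK1, 0.75 ± 0.12 for ALDOC and 0.40 ± 0.04 for GAPDH, with adjusted p in edgeR's test from 3.90e-05 for GAPDH to 7.53e-04 for PGK1. HK2, the inducible hexokinase, had 73.3, 66.7 and 79.6 CPM in shSTUB1 cells, 119, 133 and 125 CPM in V2084D cells and 103, 104 and 113 CPM in WT cells. Its V2084D libraries lay above its WT libraries by 0.21 ± 0.08, which did not pass at an adjusted p of 0.0617 in edgeR's test. LDHA, the lactate dehydrogenase subunit that favours lactate, had 684, 735 and 664 CPM in shSTUB1 cells, 1169, 1233 and 1204 CPM in V2084D cells and 1148, 1149 and 1133 CPM in WT cells. Its V2084D minus WT difference was 0.05 ± 0.05 and that of ENO1 was 0.02 ± 0.05, and neither passed.

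Of the transporters and flux regulators, 4 rose with V2084D in Huh7 and none fell. SLC2A3, the high-affinity glucose transporter GLUT3, had 50.6, 62.9 and 56.4 CPM in shSTUB1 cells, 109, 127 and 112 CPM in V2084D cells and 54.6, 55.2 and 55.7 CPM in WT cells. PDK1, an inhibitory kinase of pyruvate dehydrogenase, had 48.1, 51.4 and 47.8 CPM in shSTUB1 cells, 67.7, 72.8 and 67.5 CPM in V2084D cells and 37.04, 37.4 and 33.8 CPM in WT cells. SLC2A1, the widespread glucose transporter GLUT1, had 92.01, 87.3 and 84.3 CPM in shSTUB1 cells, 92.9, 114 and 102 CPM in V2084D cells and 64.6, 65.4 and 66.8 CPM in WT cells. In all 3 genes the V2084D libraries stood above the WT libraries, by 1.05 ± 0.09 for SLC2A3, 0.92 ± 0.07 for PDK1 and 0.62 ± 0.08 for SLC2A1. PFKFB4, which sets the level of the phosphofructokinase activator fructose 2,6-bisphosphate, rose by 0.38 ± 0.08. Its relative PFKFB3 differed by -0.09 ± 0.07 and SLC16A3 by -0.19 ± 0.26, and neither passed the test.

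Among the other HIF targets, BNIP3L and BNIP3 encode mitophagy receptors. BNIP3L had 78.6, 84.6 and 67.6 CPM in shSTUB1 cells, 136, 151 and 133 CPM in V2084D cells and 44.0, 49.1 and 45.4 CPM in WT cells, the smallest adjusted p of the members that rose, and BNIP3 had 47.6, 51.8 and 41.4 CPM in shSTUB1 cells, 105, 126 and 119 CPM in V2084D cells and 61.7, 60.1 and 61.5 CPM in WT cells. VEGFA had 82.2, 78.9 and 86.9 CPM in shSTUB1 cells, 99.7, 96.8 and 94.8 CPM in V2084D cells and 39.4, 44.4 and 44.1 CPM in WT cells. Each V2084D library exceeded each WT library in all 3, by 1.57 ± 0.09 for BNIP3L, 0.90 ± 0.09 for BNIP3 and 1.16 ± 0.07 for VEGFA. STC1, a secreted glycoprotein, had 2.02, 1.95 and 2.001 CPM in shSTUB1 cells, 8.89, 9.86 and 10.01 CPM in V2084D cells and 2.77, 2.62 and 2.66 CPM in WT cells. P4HA1, the alpha subunit of the enzyme that hydroxylates prolines of collagen, had 45.7, 47.2 and 37.8 CPM in shSTUB1 cells, 79.1, 89.3 and 84.01 CPM in V2084D cells and 45.9, 38.5 and 37.4 CPM in WT cells. Their differences of V2084D minus WT were 1.81 ± 0.13 for STC1 and 1.03 ± 0.10 for P4HA1. In edgeR's test the adjusted p of these 5 genes ran from 8.35e-07 for BNIP3L to 2.57e-05 for BNIP3. CA9 had 22, 7 and 31 reads in shSTUB1 cells, 122, 244 and 179 reads in V2084D cells and 17, 5 and 0 reads in WT cells. Its V2084D libraries stood apart from both other groups at 1.76, 2.98 and 2.86 CPM, and the fitted difference was 4.38 ± 0.86. The other 5 that rose were ANKRD37, ADM, which encodes the vasodilator adrenomedullin, EGLN1, KDM3A, a histone H3 lysine demethylase, and HILPDA, a lipid droplet protein. They ran from 0.21 for KDM3A to 1.78 for ANKRD37. The KDM3A call, at an adjusted p of 0.0406 in edgeR's test, was lost under 8 of its alternatives, among them without V2084D replicate 1 or 2 or WT replicate 2 or 3. The 4 that did not pass were NDRG1 (0.04 ± 0.07), EGLN3 (-0.40 ± 0.16), P4HA2 (0.13 ± 0.06) and CXCR4 (0.25 ± 0.19).

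The HIF subunit HIF1A had 125, 119 and 127 CPM in shSTUB1 cells, 121, 129 and 107 CPM in V2084D cells and 111, 122 and 111 CPM in WT cells, and its 3 groups overlapped. EPAS1 and ARNT rose with V2084D, by 0.67 ± 0.11 for EPAS1 and 0.58 ± 0.10 for ARNT, with adjusted p of 8.40e-04 and 0.00114 in edgeR's test. EPAS1 had 10.5, 9.47 and 11.1 CPM in shSTUB1 cells, 17.4, 16.2 and 14.2 CPM in V2084D cells and 10.2, 9.15 and 10.2 CPM in WT cells, and ARNT had 63.1, 51.8 and 69.6 CPM in shSTUB1 cells, 74.3, 76.9 and 65.9 CPM in V2084D cells and 46.2, 49.4 and 47.1 CPM in WT cells. Of 33 further HIF targets tested, 13 rose and 5 fell with V2084D, with a median of 0.07, where 22.0% of all genes rose and 20% fell. The 5 that fell were PLOD1 (-0.81 ± 0.08), NARF (-0.53 ± 0.06), GYS1 (-0.34 ± 0.09), HMOX1 (-0.31 ± 0.10) and SAP30 (-0.39 ± 0.14). The 4 with the smallest adjusted p all rose: DDIT4, an inhibitor of mTORC1, by 2.77 ± 0.11, BHLHE40, a transcriptional repressor, by 1.23 ± 0.08, MXI1, a MYC antagonist, by 0.97 ± 0.07, and VLDLR, a lipoprotein receptor, by 1.47 ± 0.13. Of 12 genes of HIF degradation and HIF cofactors, VHL rose by 0.46 ± 0.08, CITED2, which competes with HIF for the coactivator p300, rose by 0.40 ± 0.10, and the prolyl hydroxylase EGLN2 fell by 0.80 ± 0.11 on the log2 scale. Of the liver markers tested, ALB was called higher and APOB lower in V2084D, both below 3 CPM in mean, and of the 10 markers of HEK293 cells 2 rose and 3 fell. The part of these markers in the results was not tested.

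**Figure D2:**
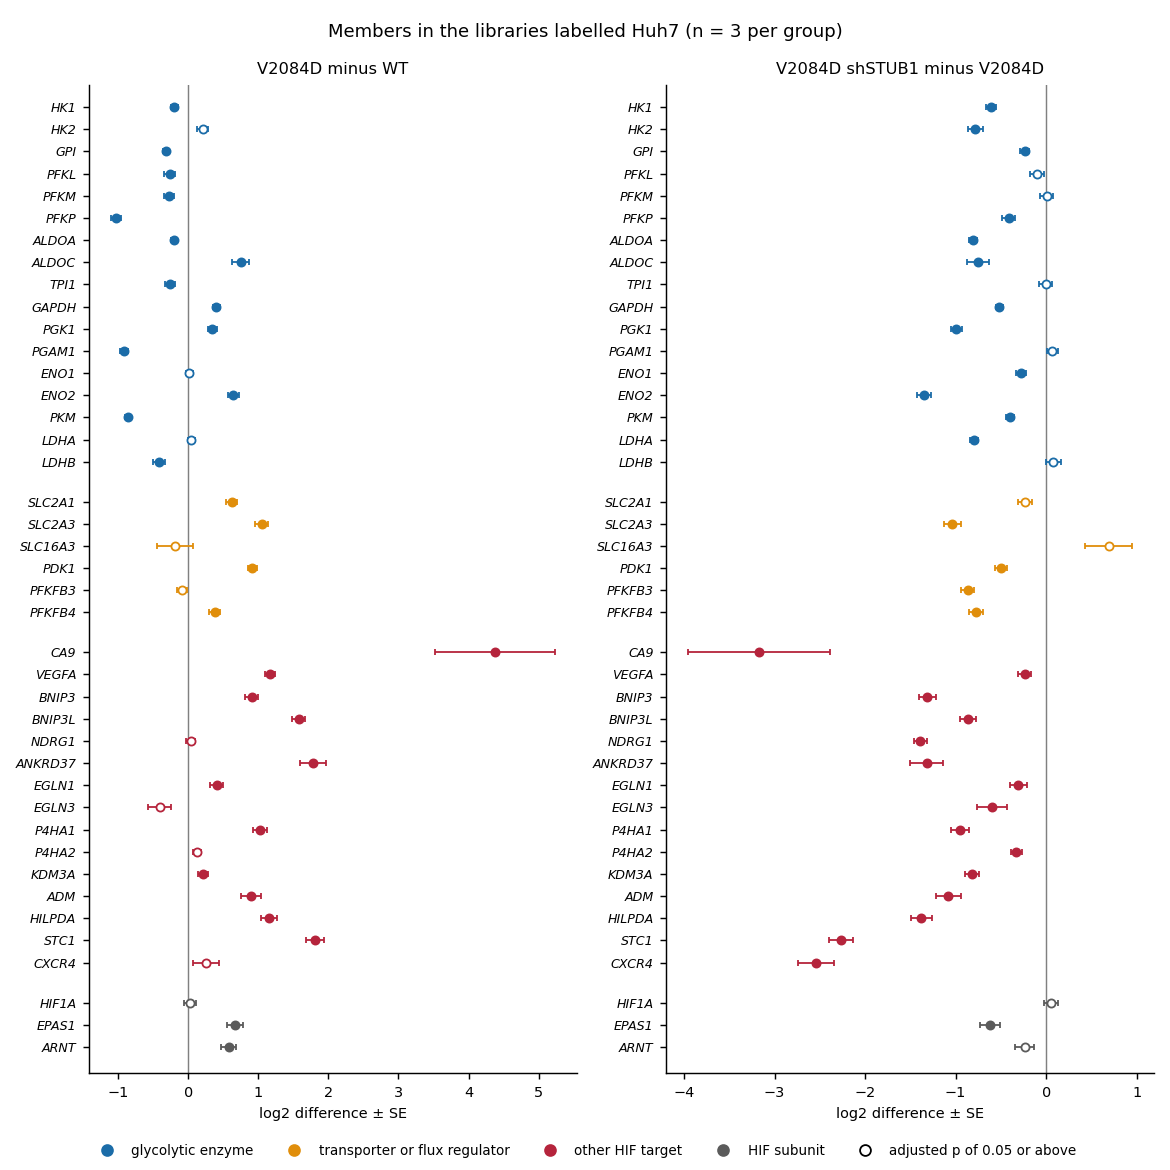
Log2 difference and SE of each member in the libraries labelled Huh7 (n = 3 per group), for V2084D minus WT and for shSTUB1 minus V2084D, coloured by role, with open circles for an adjusted p of 0.05 or above. With V2084D the 10 enzymes that fell lie left of 0 and the 11 other HIF targets that rose lie right of it, and with shSTUB1 all 15 other HIF targets lie left of 0.

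Most of the set was lower in shSTUB1 cells than in V2084D cells of Huh7. Against V2084D alone, 32 of 41 members fell and none rose, where 10.8% of the 22510 genes fell and 10.8% rose (21.5% called in all, edgeR, adjusted p below 0.05). All 15 other HIF targets fell, as did 12 of 17 glycolytic enzymes, 4 of 6 transporters or flux regulators and EPAS1. The median log2 difference was -1.08 over the other HIF targets, -0.64 over the transporters and flux regulators, -0.41 over the glycolytic enzymes and -0.24 over the subunits, against 0.00 over all genes. This comparison asks how V2084D cells with shSTUB1 differ from V2084D cells without it. No control hairpin is labelled, so the loss of STUB1 cannot be told apart from the introduction of a hairpin. The comparison shares the V2084D libraries with that of V2084D against WT. Without shSTUB1 replicate 2, the library that stood apart, 30 members fell and none rose, and against WT 24 fell and 5 rose.

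NDRG1 had 135, 135 and 137 CPM in shSTUB1 cells, 372, 369 and 322 CPM in V2084D cells and 327, 329 and 364 CPM in WT cells. The highest shSTUB1 library lay far below the lowest V2084D library, and V2084D and WT overlapped. The difference of shSTUB1 minus V2084D was -1.39 ± 0.07 at an adjusted p of 5.88e-06 in edgeR's test, the smallest among the members. LDHA was -0.79 ± 0.05, ENO2 -1.35 ± 0.08, PGK1 -0.99 ± 0.06, STC1 -2.27 ± 0.13 and ALDOA -0.81 ± 0.05, with adjusted p from 9.72e-06 for LDHA to 1.19e-05 for ALDOA in the same edgeR test. CXCR4, the receptor of the chemokine CXCL12, was picked out after its values were seen, for a size beyond the other members except CA9. It had 2.17, 3.81 and 3.36 CPM in shSTUB1 cells, 15.5, 21.02 and 17.9 CPM in V2084D cells and 15.8, 13.7 and 15.4 CPM in WT cells. No shSTUB1 library reached 4 CPM, every other one exceeded 13 CPM, and the difference was -2.54 ± 0.20 (adjusted p 5.36e-05, edgeR).

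Among the remaining HIF targets, shSTUB1 minus V2084D was -1.31 ± 0.09 for BNIP3, -1.38 ± 0.12 for HILPDA, -1.08 ± 0.14 for ADM, -0.95 ± 0.10 for P4HA1, -0.87 ± 0.09 for BNIP3L and -0.82 ± 0.07 for KDM3A. The smallest of the 15 were VEGFA (-0.23 ± 0.07), EGLN1 (-0.31 ± 0.09), P4HA2 (-0.33 ± 0.06) and EGLN3 (-0.60 ± 0.16). The VEGFA and EGLN1 calls were each lost under 10 alternatives. Among these were leaving out any V2084D replicate or shSTUB1 replicate 1 or 2 for VEGFA, and V2084D replicate 2 or 3 or any shSTUB1 replicate for EGLN1. The CA9 call was lost without V2084D replicate 2 or shSTUB1 replicate 1. The EGLN3 call was lost without V2084D replicate 2 or 3 or shSTUB1 replicate 1 or 3. Of the enzymes, HK1 fell by 0.61, HK2 by 0.78 and GAPDH by 0.52 on the log2 scale. The 5 that did not pass were PFKL, PFKM, TPI1, PGAM1 and LDHB, from -0.10 for PFKL to 0.08 for LDHB. SLC2A1 differed by -0.23 ± 0.08 (adjusted p 0.06, edgeR), SLC16A3 by 0.69 ± 0.26, HIF1A by 0.06 ± 0.08 and ARNT by -0.24 ± 0.10, and none of these 4 passed. Of the 33 further HIF targets, 15 fell and none rose, led by BHLHE40 (-1.58 ± 0.08), MXI1 (-1.34 ± 0.07), DDIT4 (-1.44 ± 0.10) and ANKZF1 (-0.69 ± 0.06). Of the 12 genes of HIF degradation and cofactors, CITED2 fell (-0.68 ± 0.10) and no other was called. Of the 10 markers of HEK293 cells 1 rose and 3 fell, among them CDH2 (-0.39 ± 0.07), and no liver marker was called. Their part in the results was not tested.

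Of the 21 members that rose with V2084D in Huh7, 19 fell with shSTUB1, all but SLC2A1 and ARNT. The V2084D libraries enter both comparisons, so part of such a fall is built in. The matching share of all genes that rose was not computed, so these counts describe the members only. Set against WT, 5 of the 21 were still higher in shSTUB1 cells, 6 were lower and 10 were not called. The 5 were SLC2A1 (0.39 ± 0.08), PDK1 (0.42 ± 0.07), VEGFA (0.93 ± 0.07), BNIP3L (0.71 ± 0.09) and ARNT (0.34 ± 0.10), and the ARNT call was lost without shSTUB1 replicate 1 or 3 or WT replicate 1 or 3. The 6 were PGK1, ENO2, PFKFB4, BNIP3, KDM3A and STC1, and the STC1 call was lost without WT replicate 1 and in a fit of these 2 groups alone. The PFKFB4 call (-0.39 ± 0.08) was lost with GC and length offsets and the replicate block together (-0.19, adjusted p 0.0762, edgeR). None of the 10 enzymes that fell with V2084D rose with shSTUB1: 5 of them fell again (HK1, GPI, PFKP, ALDOA and PKM) and 5 were not called.

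Against WT, shSTUB1 cells thus had less glycolytic enzyme mRNA. Of the 17 enzymes, 15 fell and none rose, with a median of -0.57 against 0.02 over all genes. Over the 41 members, 24 fell and 5 rose, where 45.1% of all genes were called in edgeR's test (23.5% higher and 21.7% lower). PKM (-1.26 ± 0.05), PFKP (-1.44 ± 0.07), ALDOA (-1.01 ± 0.05), NDRG1 (-1.35 ± 0.07), LDHA (-0.75 ± 0.05) and HK1 (-0.80 ± 0.05) had the smallest adjusted p, from 4.89e-08 for PKM to 1.48e-06 for HK1 in edgeR's test. HK1, the hexokinase of most tissues, had 120.2, 117 and 118 CPM in shSTUB1 cells, 179, 179 and 182 CPM in V2084D cells and 200.2, 199.6 and 208 CPM in WT cells. The TPI1 call was lost without shSTUB1 replicate 1 or 3 or WT replicate 3. The PFKL call (-0.36 ± 0.08) was lost with offsets for GC content and length, and the difference was -0.0012 (adjusted p 0.991, edgeR) with the offsets and the replicate block. The 2 enzymes not called were GAPDH (-0.11 ± 0.04) and ALDOC (-0.00 ± 0.12). Of the other HIF targets, 7 fell and 2 rose, with a median of -0.20, and the P4HA2 call was lost without shSTUB1 replicate 1 or 3 or WT replicate 1. CXCR4 differed most at -2.29 ± 0.20. Of the 33 further HIF targets, 7 rose and 15 fell, among them DDIT4 (1.33 ± 0.10), TFRC, the transferrin receptor (-1.34 ± 0.10), HMOX1, which degrades haem (-1.30 ± 0.10), and PLOD1, a collagen lysyl hydroxylase (-0.83 ± 0.08). Of the 12 genes of HIF degradation and cofactors, VHL rose (0.29 ± 0.08) and EGLN2 (-1.10 ± 0.11), CITED2 (-0.28 ± 0.10) and HIF3A fell. HIF3A had 0 CPM in every shSTUB1 library against a mean of 0.289 CPM in WT, so it is given no fold.

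**Figure D3:**
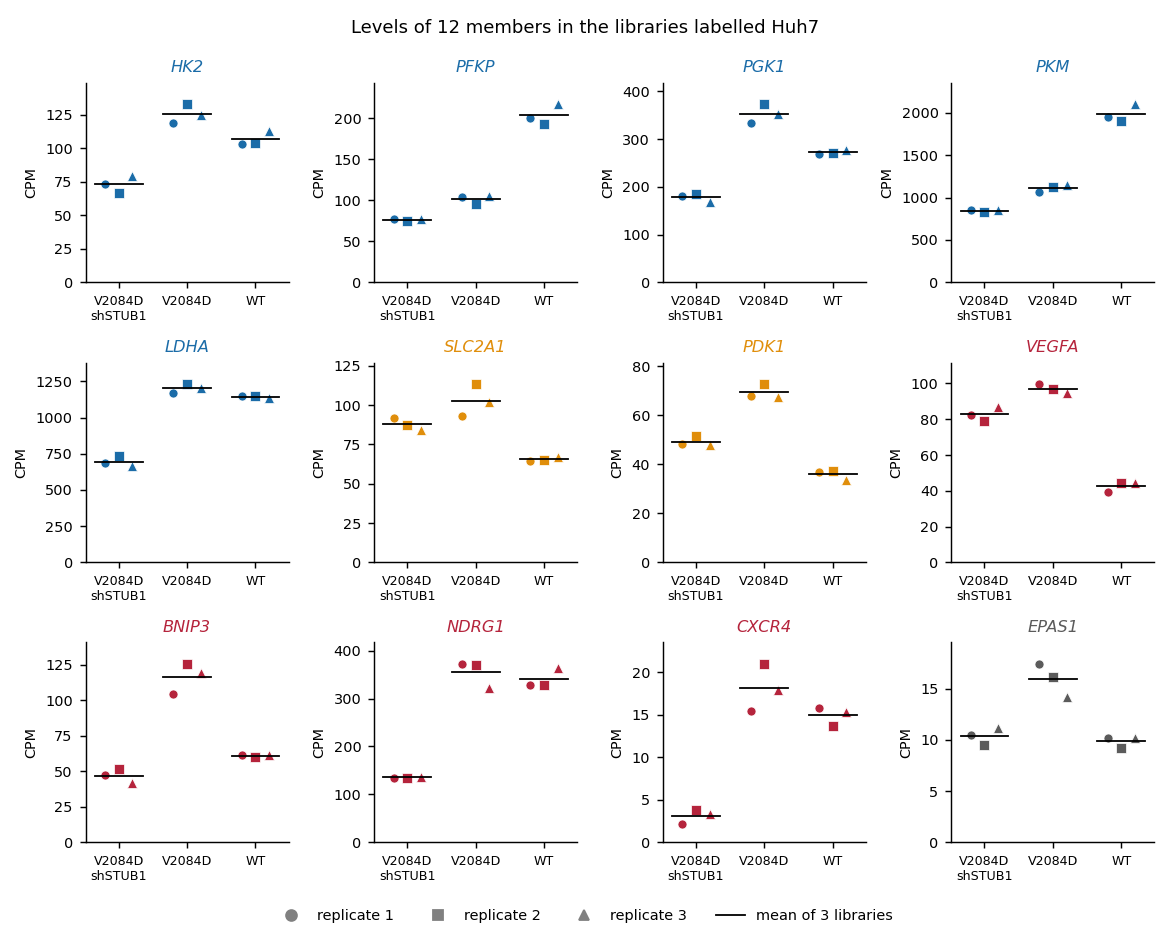
CPM of 12 members in each library labelled Huh7, on linear axes from 0, with marker shapes for the replicate number and black bars for the mean of 3 libraries. PFKP and PKM step down at V2084D and again at shSTUB1, BNIP3 and PDK1 are highest in V2084D, and CXCR4 and NDRG1 are low in shSTUB1 cells alone.

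In the libraries labelled 293T, no member was called in 8 of 9 comparisons. These were V2084D, G2087E, G2087R and WT, each against KO, and V2084D, G2087E, G2087R and K2025E, each against WT. The share called was 0.0% of the 23201 genes for the first 6 of these in edgeR's test (V2084D, G2087E, G2087R and WT minus KO, V2084D and G2087E minus WT), and 0.00431% (1 gene) for G2087R and for K2025E minus WT. DESeq2 called no member either. At an unadjusted p below 0.05, 3 of 40 members lay past the line for WT minus KO, 1 each for G2087E and G2087R minus KO, 4 for K2025E minus WT and none for V2084D minus KO or for V2084D, G2087E and G2087R minus WT. Of all genes, that unadjusted p held for 4.83% (V2084D), 5.66% (G2087E), 4.31% (G2087R) and 11% (WT) against KO, and for 2.01% (V2084D), 2.05% (G2087E), 4.45% (G2087R) and 8.27% (K2025E) against WT. CA9 was filtered out, which leaves 40 members.

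Past an unadjusted p of 0.05 in the 4 comparisons against KO without a call were NDRG1, TPI1 and PGAM1, each at a positive difference. NDRG1 had 132, 121 and 157 CPM in V2084D cells, 157, 124 and 159.6 CPM in G2087E cells, 155, 183 and 142 CPM in G2087R cells, 136, 158 and 154 CPM in K2025E cells, 133, 149 and 160.5 CPM in WT cells and 111, 104 and 133 CPM in KO cells. G2087R minus KO was 0.47 ± 0.16, WT minus KO 0.36 ± 0.16 and G2087E minus KO 0.35 ± 0.16, with unadjusted p of 0.00718, 0.0346 and 0.0392 in edgeR's test. TPI1, the triosephosphate isomerase, had 763, 659 and 694 CPM in V2084D cells, 789.7, 723 and 758 CPM in G2087E cells, 844, 846 and 690.0 CPM in G2087R cells, 813, 1189 and 1148 CPM in K2025E cells, 912, 731 and 753 CPM in WT cells and 659, 642 and 638 CPM in KO cells. PGAM1 had 506, 443 and 516 CPM in V2084D cells, 501, 467 and 525 CPM in G2087E cells, 518, 507 and 487 CPM in G2087R cells, 512, 603 and 673 CPM in K2025E cells, 589.9, 515 and 551 CPM in WT cells and 421, 435 and 483 CPM in KO cells. WT minus KO was 0.31 ± 0.13 for PGAM1 and 0.31 ± 0.15 for TPI1, and in both genes the WT and KO libraries did not overlap. PFKL, the liver isoform of phosphofructokinase, had 136, 90.98 and 145 CPM in V2084D cells, 171, 121 and 119 CPM in G2087E cells, 195, 207 and 106 CPM in G2087R cells, 137, 228 and 165 CPM in K2025E cells, 151, 154 and 109 CPM in WT cells and 97.4, 98.5 and 150.1 CPM in KO cells. Its G2087R minus KO difference was 0.56 ± 0.27, and -0.12 with replicate 3 as the only G2087R library. The 0.56 rested on replicates 1 and 2, whose ARID1A was near the KO level. Without these 2 libraries no member was called in either G2087R comparison. ENO1 had 1436, 1148 and 1492 CPM in V2084D cells, 1449, 1345 and 1509 CPM in G2087E cells, 1557, 1569 and 1301 CPM in G2087R cells, 1394, 2112 and 2130.0 CPM in K2025E cells, 1540.0, 1405 and 1459.6 CPM in WT cells and 1102, 1134 and 1384 CPM in KO cells, with G2087E minus KO at 0.25 ± 0.16. For V2084D minus KO the smallest p belonged to P4HA2 (-0.36 ± 0.20) and HILPDA (-0.40 ± 0.24). P4HA2 had 24.8, 19.7 and 26.5 CPM in V2084D cells, against 26.8, 23.3 and 41.1 CPM in KO cells, and HILPDA had 24.1, 20.9 and 25.9 CPM in V2084D cells, against 26.8, 28.6 and 38.4 CPM in KO cells. In both the highest of the 6 libraries was KO replicate 3.

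Between the mutants and WT in 293T, no member was called. The median over the 17 enzymes was -0.15 for V2084D, -0.07 for G2087E, 0.01 for G2087R and 0.20 for K2025E minus WT, and over the other HIF targets -0.16, -0.10, -0.13 and 0.00 in the same order. ENO2 had 42.4, 36.4 and 49.1 CPM in V2084D cells, against 54.96, 47.4 and 62.7 CPM in WT cells, a difference of -0.37 ± 0.20. STC1 had 0.224, 0.922 and 0.979 CPM in V2084D cells, against 0.501, 0.931 and 4.44 CPM in WT cells, where WT replicate 3 was the highest of the 6, and the difference was -1.47 ± 1.03. ALDOC had 15.1, 12.3 and 10.8 CPM in G2087E cells, against 17.1, 14.3 and 15.2 CPM in WT cells, and PFKFB4 had 16.1, 13.9 and 26.1 CPM in G2087E cells, against 18.6, 19.1 and 37.3 CPM in WT cells. The G2087E and WT libraries of both genes overlapped. SLC16A3 had 4.85, 3.23 and 3.33 CPM in G2087R cells, against 3.35, 3.28 and 2.05 CPM in WT cells, overlapping as well.

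K2025E against KO was the only 293T comparison with members called, and those calls were not stable. Of 40 members 7 were called (17.5%), against 12.9% of all 23201 genes (7.17% higher and 5.72% lower). All 5 that rose were glycolytic enzymes: TPI1 by 0.70 ± 0.15, ENO1 by 0.64 ± 0.16, GAPDH by 0.59 ± 0.19, LDHB by 0.58 ± 0.19 and PGAM1 by 0.42 ± 0.13, with adjusted p from 0.00861 for TPI1 to 0.0493 for LDHB in edgeR's test. GAPDH had 1911, 2744 and 2891 CPM in K2025E cells, against 1501, 1538 and 1993 CPM in KO cells. LDHB had 1179.6, 1443 and 1309 CPM in K2025E cells, against 1027, 973 and 634 CPM in KO cells. For TPI1, ENO1, LDHB and PGAM1 each K2025E library lay above each KO library, while for GAPDH KO replicate 3 exceeded K2025E replicate 1. K2025E replicates 2 and 3 were far above replicate 1 for GAPDH, ENO1 and TPI1. HIF1A and EPAS1 fell, by 0.72 ± 0.22 and 0.74 ± 0.23 on the log2 scale. HIF1A had 106, 129.6 and 99.1 CPM in V2084D cells, 105, 112 and 119 CPM in G2087E cells, 93.5, 83.1 and 120.4 CPM in G2087R cells, 96.5, 45.1 and 62.3 CPM in K2025E cells, 87.3, 115 and 106 CPM in WT cells and 122, 116 and 98.01 CPM in KO cells. EPAS1 had 16.1, 15.4 and 15.6 CPM in V2084D cells, 15.97, 17.4 and 11.2 CPM in G2087E cells, 15.7, 20.2 and 11.8 CPM in G2087R cells, 11.6, 7.71 and 8.21 CPM in K2025E cells, 14.1, 18.5 and 11.5 CPM in WT cells and 14.5, 13.9 and 17.6 CPM in KO cells. In both genes K2025E replicates 2 and 3 were the lowest of the 18 libraries. The median over the enzymes was 0.38, over the other HIF targets -0.07 and over all genes -0.02. The count of 7 dropped to 0 without K2025E replicate 2, to 0 without K2025E replicate 3 and to 1 without KO replicate 1 or KO replicate 2. With offsets for GC content and length 2 were called, and PGAM1 turned to -0.024. Of 34 further HIF targets 1 rose and 4 fell in K2025E, the 4 being CA12, MXI1, LOX and AK4, and of 11 genes of HIF degradation and cofactors RBX1, ELOB and ELOC, parts of the VHL ligase, rose and the coactivator EP300 fell. Of 10 markers of HEK293 cells, those that fell included CDH2 (-0.95 ± 0.17), and their part in the result was not tested. The calls of these further genes and markers were not checked under the alternatives.

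For K2025E minus WT the smallest p belonged to EPAS1 (-0.69 ± 0.23), HIF1A (-0.60 ± 0.22) and TPI1 (0.39 ± 0.15), with an adjusted p of 0.601 for each in edgeR's test. Without K2025E replicate 1, HIF1A (-0.94) and TPI1 (0.54) passed.

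**Figure D4:**
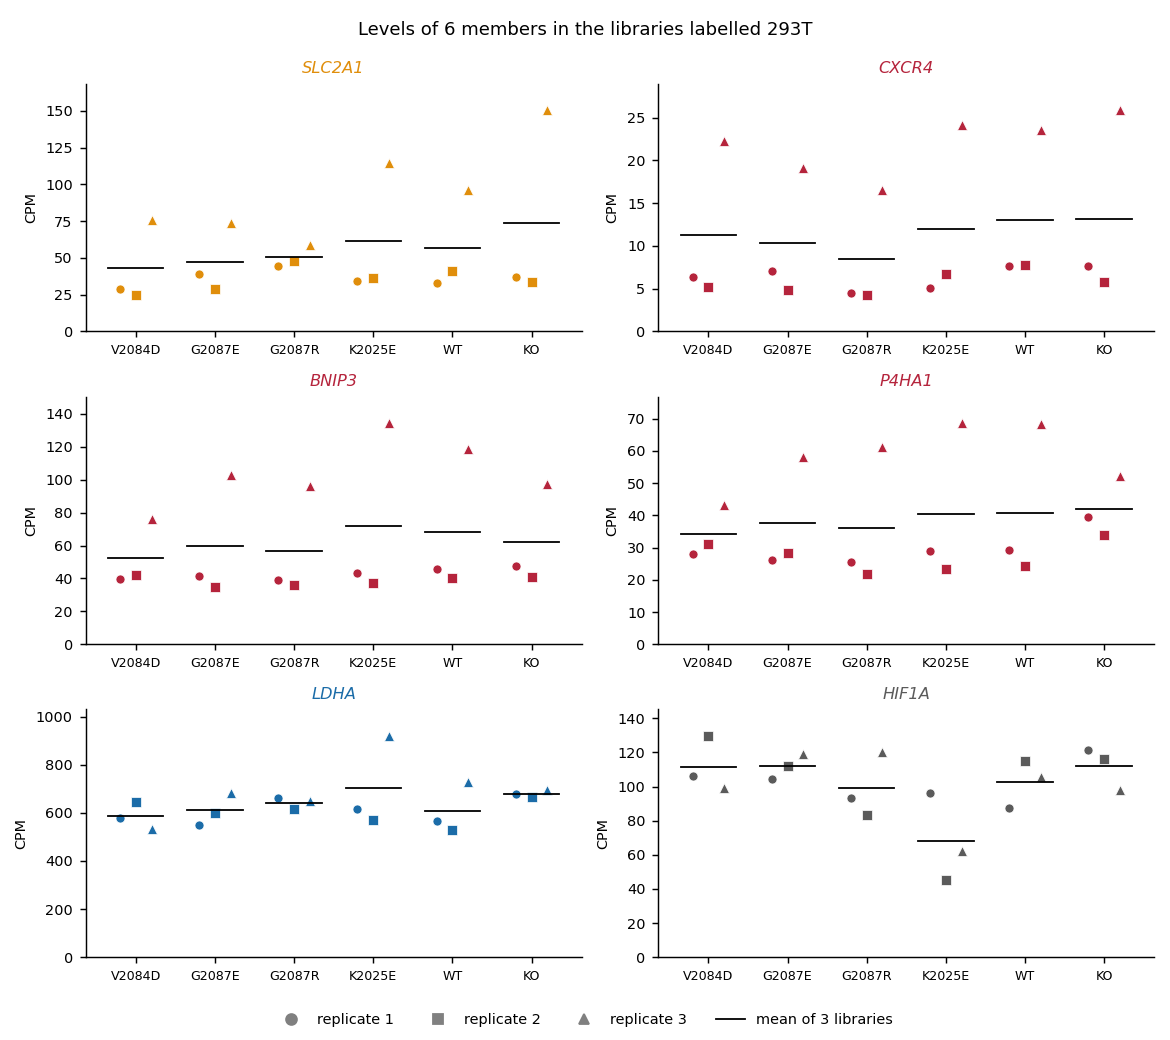
CPM of 6 members in the 18 libraries labelled 293T, on linear axes from 0, by group, with marker shapes for the replicate number and black bars for the mean of 3 libraries. SLC2A1, CXCR4, BNIP3 and P4HA1 have the replicate 3 library on top in every group, KO included, LDHA in 4 of 6 groups and HIF1A in 2.

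In 293T the HIF targets differed by replicate number. This was looked for after the values were seen, in the fit with the replicate number as a term beside the group. Relative to the mean of replicates 1 and 2, 18 of 40 members were higher in replicate 3 and 1 was lower, where 3.92% of the 23201 genes were higher and 3.25% lower (edgeR, adjusted p below 0.05). The 18 were 11 of 14 other HIF targets, 4 of 6 transporters or flux regulators and 3 of 17 glycolytic enzymes, with medians of 0.65, 0.84 and 0.04 in that order, and none of the 3 subunits. The member that was lower was PFKM, the muscle phosphofructokinase (-0.32 ± 0.08). For 14 members all 6 replicate 3 libraries stood above all 12 others, which held for 0.461% of all genes. Replicate 3 was the highest in every group for 17 members, against 2.91% of all genes. The highest of the 18 libraries was a replicate 3 library for 29 of the 40 members, 10 of them glycolytic enzymes. For enzymes such as ALDOA, GAPDH and ENO1 that library was K2025E replicate 3. The share over all genes was not computed for this count, so it is not read as a difference by replicate number. The labels do not say what a replicate number marks.

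CXCR4 ran from 16.5 to 25.9 CPM (median 22.9) in the replicate 3 libraries, against 4.23 to 7.81 CPM (median 6.07) in the other 12. The log2 difference was 1.86 ± 0.11, and its adjusted p of 2.34e-07 in edgeR's test was the smallest of all 23201 genes. BNIP3 ran from 76.4 to 134 CPM (median 100.2) in the replicate 3 libraries, against 34.7 to 47.4 CPM (median 40.5) in the other 12, with a difference of 1.35 ± 0.10. These 2 genes and SLC2A3 (1.36 ± 0.10) held the 3 smallest p of the whole table. SLC2A1 had 29.1, 24.6 and 76.04 CPM in V2084D cells, 39.2, 29.1 and 74.03 CPM in G2087E cells, 44.7, 47.7 and 58.9 CPM in G2087R cells, 34.4, 36.5 and 114 CPM in K2025E cells, 32.9, 41.1 and 95.99 CPM in WT cells and 36.9, 33.5 and 150.4 CPM in KO cells. In each of the 6 groups replicate 3 was the highest, by 1.39 ± 0.15 in the fit. In all 5 groups with ARID1A put back, replicate 3 also had the highest ARID1A, at 63182 CPM in WT, 116307 in V2084D, 85877 in G2087E, 68482 in G2087R and 21672 CPM in K2025E. KO replicate 3 had the lowest ARID1A of the KO libraries (119 CPM) and the highest SLC2A1 and CXCR4 of all 18. The part of ARID1A level in the difference by replicate number was not tested. STC1 differed by 2.33 ± 0.27, ANKRD37 by 1.33 ± 0.15, ADM by 1.19 ± 0.16, P4HA1 by 1.06 ± 0.12, PFKFB4 by 0.91 ± 0.12, PDK1 by 0.78 ± 0.14 and EGLN3 by 0.72 ± 0.09. VEGFA had 49.3, 48.4 and 63.9 CPM in V2084D cells, 52.3, 51.2 and 66.7 CPM in G2087E cells, 52.05, 52.7 and 62.5 CPM in G2087R cells, 51.6, 40.7 and 51.8 CPM in K2025E cells, 50.9, 54.3 and 60.1 CPM in WT cells and 47.9, 51.1 and 81.7 CPM in KO cells, a smaller difference of 0.35 ± 0.09.

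Among the enzymes, HK2 had 55.3, 60.4 and 82.7 CPM in V2084D cells, 61.4, 56.01 and 85.2 CPM in G2087E cells, 63.2, 63.6 and 80.7 CPM in G2087R cells, 58.7, 43.1 and 73.2 CPM in K2025E cells, 54.4, 68.3 and 110.0 CPM in WT cells and 63.7, 57.96 and 97.5 CPM in KO cells. HK2 (0.58 ± 0.09), PGK1 (0.45 ± 0.09) and ENO2 (0.34 ± 0.09) were the 3 enzymes higher in replicate 3. LDHA had 577, 646 and 535 CPM in V2084D cells, 551, 598 and 682 CPM in G2087E cells, 663, 616 and 649 CPM in G2087R cells, 614, 571 and 920.0 CPM in K2025E cells, 565, 529 and 728 CPM in WT cells and 677, 666 and 695 CPM in KO cells, with overlap of replicate 3 and the others, and its difference of 0.21 ± 0.10 did not pass (adjusted p 0.21, edgeR). The difference for HIF1A was -0.00 ± 0.14 and did not pass. In Huh7, where 0.0% of the 22510 genes were called for the replicate number in edgeR's test and 764 had an unadjusted p below 0.05, none of the 41 members passed at either threshold. The replicate number is crossed with the groups, so it adds to the spread within each 293T group. Without replicate 3 of every 293T group, K2025E minus KO had no member called.

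**Figure D5:**
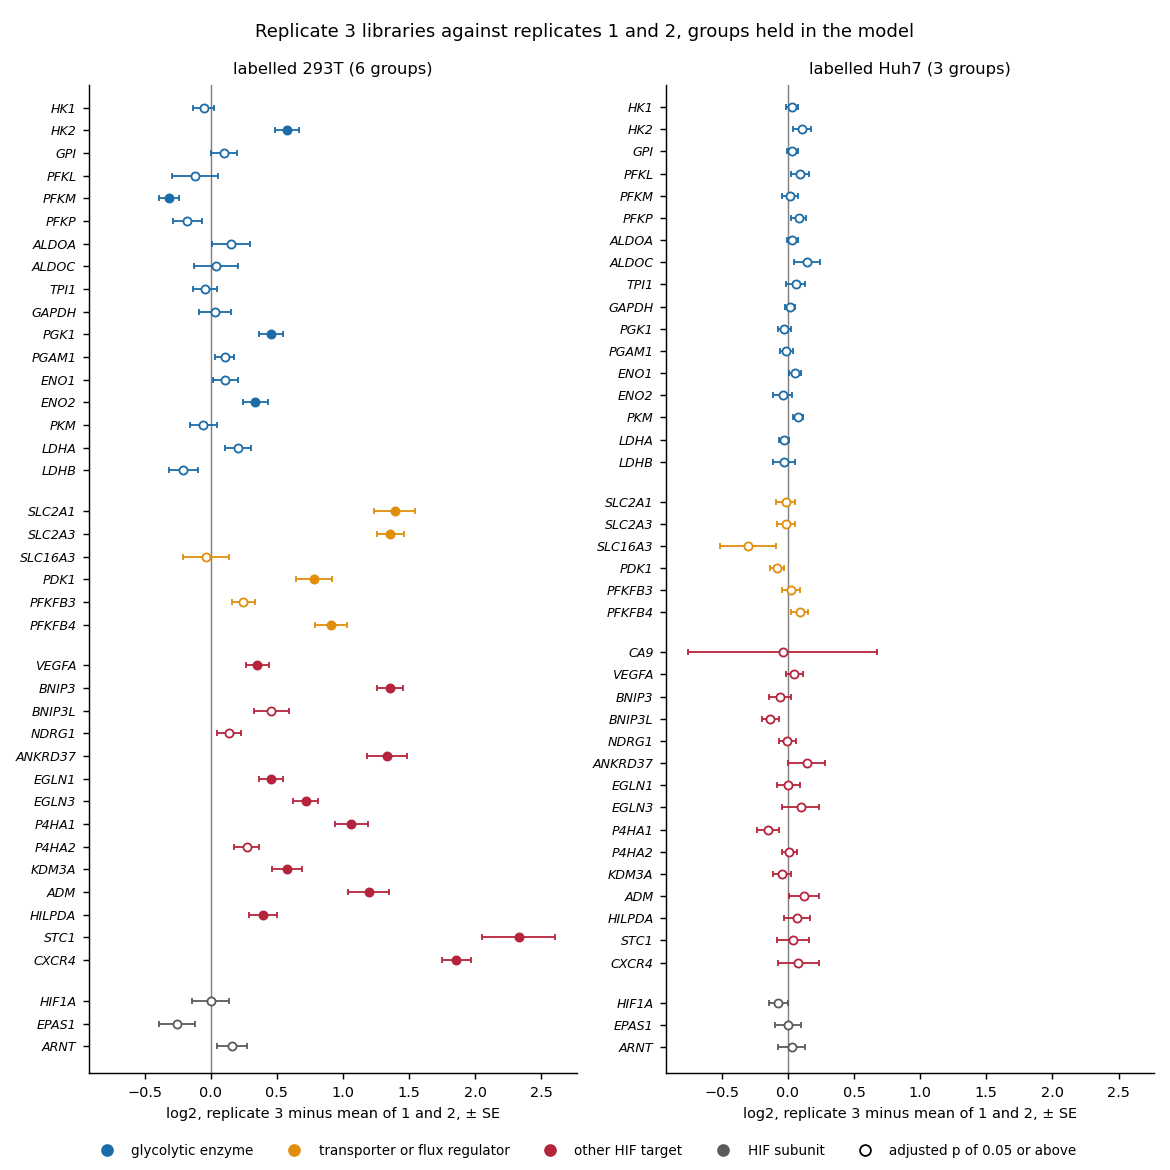
Log2 difference of replicate 3 from the mean of replicates 1 and 2 with its SE, by member and role, for the libraries labelled 293T (6 groups) and Huh7 (3 groups), with open circles for an adjusted p of 0.05 or above. In 293T 11 other HIF targets and 4 transporters or flux regulators lie right of 0 with filled circles and most enzymes lie near 0, and in Huh7 every circle is open.

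With the same labelled ARID1A form, Huh7 WT cells had more glycolytic enzyme mRNA than 293T WT cells, though line and count table cannot be told apart. The ARID1A level differed too, at 329 to 390 CPM in Huh7 WT and 5727 to 63182 CPM in 293T WT. Its part in the differences was not tested. Of 41 members 13 were called (31.7%), 10 higher and 3 lower in Huh7, against 23.0% of the 24546 genes of the joint fit (10.5% higher and 12.5% lower). Of the 17 enzymes 7 were higher and none lower, with a median of 0.46 against -0.07 over all genes. NDRG1 had 327, 329 and 364 CPM in Huh7 WT cells, against 133, 149 and 160.5 CPM in 293T WT cells, and no library overlapped (1.21 ± 0.13). GPI had 534, 538 and 575 CPM in Huh7 WT cells, against 284, 298 and 288 CPM in 293T WT cells (0.92 ± 0.13). LDHA had 1148, 1149 and 1133 CPM in Huh7 WT cells, against 565, 529 and 728 CPM in 293T WT cells (0.91 ± 0.14). HK1 (0.65 ± 0.10), PFKP (0.83 ± 0.16), PKM (0.59 ± 0.14), ENO1 (0.51 ± 0.14) and ENO2 (0.66 ± 0.17) were higher as well, as were HILPDA (0.76 ± 0.21) and P4HA2 (0.58 ± 0.17). Across the 10 genes the adjusted p in edgeR's test ran from 5.81e-07 for NDRG1 to 0.0133 for P4HA2. SLC16A3 (-0.99 ± 0.30), EPAS1 (-0.58 ± 0.20) and ARNT (-0.51 ± 0.16) were lower in Huh7 WT. Calls were lost with single libraries left out for EPAS1 (all but 293T WT replicate 3), ARNT (293T WT replicate 3 or any Huh7 WT replicate), SLC16A3 (293T WT replicate 1 or 2 or Huh7 WT replicate 3), and HILPDA and P4HA2 (293T WT replicate 2). The count without replicate 3 of every 293T group was 26, with 23 higher and 3 lower.

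The V2084D minus WT change itself was compared between the lines. The difference of differences passed for 9 of 41 members (22.0%), 6 positive and 3 negative, against 9.72% of 24546 genes (5.5% positive and 4.21% negative, edgeR). Among the other HIF targets the median was 1.22 and among the enzymes -0.04, beside 0.05 over all genes.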

How the data were processed

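RNA of 27 libraries was sequenced. The authors deposited raw counts per gene in 1 table per cell line, checked here to be whole numbers, and every column matched 1 sample by its title. Per the submitters' processing notes the build was GRCh38 and edgeR is named, with no version or role. The aligner, counter, annotation and strand setting are not given in the sources used here. The members and lists were chosen with earlier results of these data known. GPI and LDHA each had a second identifier without a count, which was left out.

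The quasi-likelihood test of edgeR 4.0.16 was run under R 4.3.3 on the counts (TMM scaling, filterByExpr with a minimum count of 10 and a minimum total of 15), all groups of a line in 1 fit and both lines in a joint fit. This kept 23201 genes in 293T, 22510 in Huh7 and 24546 jointly, and p was adjusted by Benjamini-Hochberg over all of them (threshold 0.05). Each SE was obtained by dividing the size of the log2 difference by the root of F. Averaged over genes, replicate pairs differed with 11.7 to 345 times the variance of counting. These averages included ARID1A itself. The highest was that of G2087R replicates 2 and 3, where ARID1A was at 326 and 68482 CPM, and the part of ARID1A in it was not separated. For genes with many reads the spread between libraries thus limits precision more than the depth. For members with few reads, such as CA9, the depth limits it as well. CPM used TMM factors of all 27 libraries, and log2 CPM a prior count of 2. Lengths came from GENCODE 29 principal transcripts. Promoters came from RefSeq.

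Values in every library were given for up to 6 called members in each direction by adjusted p, the 3 with the smallest p where none was called, and HK2, LDHA, SLC2A1, VEGFA, CA9 and HIF1A, and at most 4 genes per further list. Alternatives were RLE factors, DESeq2 1.42.0, 2 other filters, library sizes without ARID1A, GC content and length offsets, a replicate block, only the compared groups, left-out libraries and no G2087R replicates 1 and 2. Same-numbered libraries deviated together (correlation above 0.1 for every pair) in G2087R minus WT only, from 0.13 to 0.32. In the other 293T comparisons the correlation between replicate 3 libraries ran from 2.18e-05 for WT minus KO to 0.28 for V2084D minus KO. The difference of replicate 3 described above for 293T can thus be present where this criterion is not met. The fit was tested on simulated counts.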

Additional observations from a re-analysis of the deposited data

Results flagged for a closer look

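The V2084D minus WT change differed between the lines, by the interaction term of the joint edgeR fit, for 9 members. In Huh7 it exceeded that in 293T by 1.76 ± 0.34 (log2, SE) for BNIP3L, 1.47 ± 0.29 for HILPDA, 1.22 ± 0.23 for VEGFA, 1.04 ± 0.24 for ENO2, 1.01 ± 0.33 for ALDOC and 0.72 ± 0.23 for ARNT. It was below that in 293T by a difference of -0.99 ± 0.22 for PFKP, -0.73 ± 0.20 for PKM and -0.71 ± 0.15 for PGAM1. The adjusted p in edgeR's test ran from 0.00155 for VEGFA to 0.0497 for ALDOC. The 2 weakest, ALDOC and ARNT, were each lost under 16 alternatives, and PKM without Huh7 V2084D replicate 1 or Huh7 WT replicate 3.

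For BNIP3L, V2084D minus WT was 1.57 ± 0.09 in Huh7 and -0.17 ± 0.28 in 293T. VEGFA had 1.16 ± 0.07 in Huh7 and -0.04 ± 0.20 in 293T, and PFKP -1.03 ± 0.07 in Huh7 and -0.01 ± 0.19 in 293T. ARID1A in Huh7 was at 211 to 270 CPM with V2084D, against 329 to 390 CPM with WT, while in 293T it was at 42886 to 116307 CPM with V2084D, against 5727 to 63182 CPM with WT. The part of this ARID1A gap in the differences was not tested.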

How the results depend on the processing

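Of 145 results for single members, the alternatives gave 2322 values: 2134 kept direction and side of the threshold, 181 kept direction but not the call, 2 gained the call and 5 turned round. The 5 were PFKL without G2087R replicates 1 and 2 (-0.12 for G2087R minus KO, -0.37 for G2087R minus WT), GAPDH in K2025E minus KO with GC and length offsets and the replicate block (-0.0012), and PGAM1 there with the offsets (-0.024) and with both (-0.025). The cause was not tested. The members called in K2025E minus KO went from 7 to 2 without a filter, 2 with GC and length offsets, 0 in a fit of these 2 groups alone, 0 without K2025E replicates 2 and 3, 0 without replicate 3 of every 293T group, and 0 to 10 with single libraries left out. K2025E minus WT had 0 to 3 called with single libraries left out. Huh7 WT minus 293T WT had 13 called, 20 with offsets (14 higher, 6 lower, against 10 and 3), 27 with offsets and replicate block, and 26 without replicate 3 of every 293T group. The difference between lines had 9, 15 with the replicate block, 22 with offsets and block, and 18 without replicate 3 of every 293T group. The 2 settings without K2025E replicates 2 and 3 or without replicate 3 of every 293T group were chosen after seeing the data.

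The median of the other HIF targets less that of the enzymes was 1.11 in Huh7 V2084D minus WT and 1.07 to 1.21 with single libraries left out. In 293T it was -0.34 for G2087R minus KO and 0.38 without G2087R replicates 1 and 2, and -0.14 for G2087R minus WT and 0.57 without them. Only 1 library of the group, replicate 3, is then left, and the other HIF targets were higher in replicate 3 of every 293T group. This shift therefore cannot be told apart from the difference by replicate number. It was -0.30 for V2084D minus KO, and -0.44 to 0.0778 with single libraries left out, and -0.45 for K2025E minus KO, and -0.91 to -0.10 with single libraries left out. Replicate numbers were not taken as pairs except for G2087R minus WT, where the replicate block changed no call (0 members with and without). With the block K2025E minus KO had 8 members called, Huh7 V2084D minus WT 30, shSTUB1 minus V2084D 30 and shSTUB1 minus WT 29. Of the counts of members, the block by itself moved that of the difference between lines by over 1.5 times, as given above, and no other. All other counts stayed within 1.5 times under every setting run. The biological coefficient of variation was 30.9% in 293T, 24.8% in Huh7 and 30.3% in the joint fit.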

Other observations

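Beside the set, the gluconeogenesis genes PCK2 and PCK1 were higher with V2084D in Huh7, where 22.0% of all genes rose. PCK2, the mitochondrial phosphoenolpyruvate carboxykinase, averaged 257 CPM in V2084D cells and 36.3 CPM in WT cells, a log2 difference of 2.79 ± 0.07 (SE, n = 3 each, edgeR adjusted p 4.26e-09). Its cytosolic relative PCK1 rose by 1.99 ± 0.22 at a low level of 4.30 CPM in V2084D cells and 1.06 CPM in WT cells. With shSTUB1 PCK2 stayed 2.54 ± 0.07 above WT. Against V2084D, 1 of the 2 genes fell with shSTUB1 and none rose, where 10.8% of all genes fell. PCK2 and PCK1 were the 2 of 5 gluconeogenesis genes that passed the filter.

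Of the 7 genes of the pentose phosphate pathway, 4 fell and 1 rose with V2084D against WT in Huh7, where 42.0% of all genes were called (22.0% higher and 20% lower). Those that fell included PGD (-1.09 ± 0.07), TKT (-0.62 ± 0.06) and TALDO1 (-0.70 ± 0.09). TALDO1, PGD and TKT rose with shSTUB1 against V2084D, by 0.39 ± 0.09, 0.25 ± 0.06 and 0.21 ± 0.06 in that order, while 12 of the 17 glycolytic enzymes fell and 10.8% of all genes were called in each direction. Of 13 genes of pyruvate entry into mitochondria, 3 rose and 4 fell with V2084D, the share that rose being close to that of all genes. The pyruvate carboxylase gene PC fell (-0.94 ± 0.09), the pyruvate carrier subunit MPC1 rose (0.69 ± 0.11), PDHA1 fell (-0.39 ± 0.06) and PDK4 rose (1.24 ± 0.21). Of 14 further isoforms and side enzymes of glycolysis tested, 3 rose and 3 fell, a share close to the 42.0% of all genes, among them the phosphoglucomutase PGM1 (0.75 ± 0.07) and its relative PGM2 (-1.14 ± 0.12). With shSTUB1 against V2084D the counts were 3 higher and 1 lower of these 14, and 2 higher and 2 lower of the 13.

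In K2025E minus KO cells of 293T, 2 of 7 pentose phosphate genes rose (PGLS by 1.10 ± 0.24 and TALDO1 by 0.67 ± 0.20), and 3 of 13 genes of pyruvate entry rose and 1 fell, where 12.9% of all genes were called (7.17% higher and 5.72% lower). These calls were not rerun under the alternatives, and of the 41 described genes none was called in this comparison without K2025E replicate 2 or 3.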
